A study of Homo sapiens with 3 samples.

Results

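Amino acid transporters of the SLC1, SLC3, SLC7, SLC36, SLC38 and SLC43 families were followed across 3 RNA sequencing libraries whose labels name HCT116, a line derived from a human colorectal carcinoma. The members were all protein-coding genes whose symbol starts with one of these family names followed by a member number, 41 of the 58735 genes in the table. The libraries were 1 of cells overexpressing ZEB1 K80R, a mutant form of the zinc-finger transcription factor ZEB1 with a lysine replaced by an arginine, 1 of cells overexpressing wild-type ZEB1, and 1 of cells with the empty vector. All 3 cultures carried the same treatment label, control, and were grown in DMEM with fetal bovine serum and antibiotics. The sources used here do not give the promoter of the constructs, the time after their introduction or the number of clones. With 1 library per group there is no spread between cultures, no test and no p-value, and each difference is one between single libraries. Fewer cells of a type and less RNA per cell cannot be told apart in such bulk RNA. Of the 41 members, 40 are solute carriers. The remaining one, SLC7A6OS, carries a matching symbol because it lies on the strand opposite to SLC7A6 and is not a transporter.

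Cells take up amino acids through carriers with overlapping substrates. Some SLC7 proteins are light chains that reach the cell surface only when bound to an SLC3 heavy chain, and they mostly exchange one amino acid for another. SLC1 and SLC38 carriers couple transport to sodium. SLC38 carriers such as SLC38A2 load the cell with glutamine, serine or alanine. Exchangers then trade part of this load for leucine and other essential amino acids. Other members sit on lysosomes, where they release amino acids or report them to the growth-controlling kinase complex mTORC1. In cultured tumour cells, genes of this group are known targets of ATF4, a factor induced when amino acids are scarce, and of MYC.

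The libraries held 13479517 reads for ZEB1 K80R, 14322537 for wild-type ZEB1 and 14764535 for empty vector, recovered from the deposited FPKM (reads scaled to gene length and library depth). ZEB1 itself stood at 10.3, 9.83 and 5.66 FPKM in the same libraries. Mitochondrial genes took 9.75%, 7.77% and 1.29% of the reads, and genes with a single read numbered 2902, 2705 and 350. The cell type on the label was not borne out by 10 genes typical of colon epithelium: 8 of them, CDH1 and EPCAM included, had no read in any library, and the list summed to 0.109, 0.0274 and 0.236 FPKM. The simple epithelial keratins KRT8 and KRT18 summed to 89.5, 101 and 92.7 FPKM. Of 14 markers of leukocytes, endothelium, fibroblasts, hepatocytes and neurons, 3 had no read in any library, among them the leukocyte marker PTPRC. The 14 summed to 52.9, 49.1 and 74.4 FPKM, most of it the neurofilament gene NEFL. The part of these marker, mitochondrial and single-read values in the results below was not tested. Ratios are of FPKM, with exact 95% counting intervals in brackets that cover counting error only, and differences are of log2(FPKM + 1), a scale that understates those of low genes. A gene counted as higher or lower when its ratio of FPKM + 1 was at least 1.5 in that direction.

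Of the 41 members, 19 reached a mean of 1 FPKM over the 3 libraries and were compared, and 22 did not. The nearest to that limit were SLC38A9 above it, at 2.24, 1.87 and 1.75 FPKM, and SLC7A6OS below it, at 1.05, 0.804 and 1.14. No read fell in any library on 12 members: SLC1A6, SLC1A7, SLC7A3, SLC7A9, SLC7A10, SLC7A13, SLC7A14, SLC36A2, SLC36A3, SLC38A4, SLC38A8 and SLC38A11. FPKM reached 10 in 8 members in each library. The 4 highest members were SLC38A2, SLC7A5, SLC1A5 and SLC3A2 in all 3 libraries, and together they held 74.9% of the summed FPKM of the members with ZEB1 K80R, 78.2% with wild-type ZEB1 and 74.5% with empty vector. That sum was 527, 507 and 395 FPKM. As a share of the FPKM of all genes it was 0.173%, 0.165% and 0.176%, and without the mitochondrial genes 0.263%, 0.227% and 0.186%. The order of the libraries thus depended on whether the mitochondrial genes were counted.

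**Figure D1:**
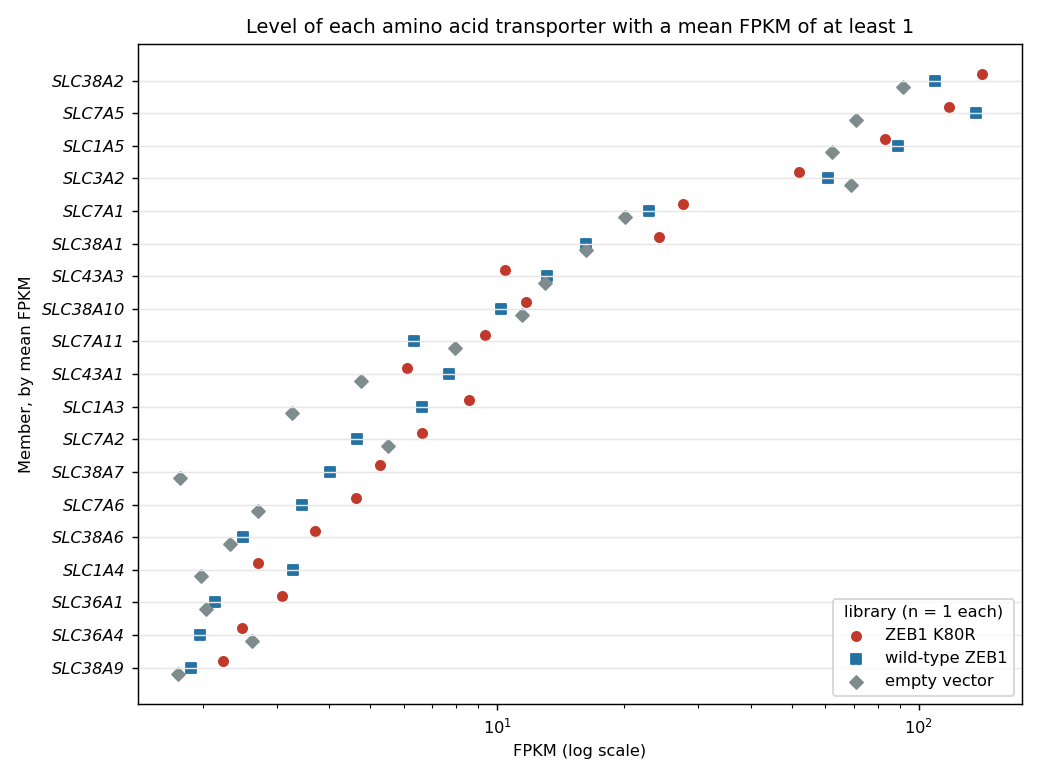
FPKM on a log scale of the 19 members with a mean of at least 1, 1 point per library (ZEB1 K80R circles, wild-type ZEB1 squares, empty vector diamonds). SLC38A2, SLC7A5, SLC1A5 and SLC3A2 stand apart at the top, and the empty vector point lies far left for SLC1A3 and SLC38A7.

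The order at the top changed between libraries. SLC38A2 led SLC7A5 with ZEB1 K80R (141 and 118 FPKM), and SLC7A5 led SLC38A2 with wild-type ZEB1 (136 and 109 FPKM). With empty vector SLC38A2 again led SLC7A5 (91.6 and 71.1 FPKM). SLC3A2 came after SLC1A5 in both overexpression libraries and before it in the empty vector library, where the counting interval of the ratio of SLC7A5 to SLC3A2 held 1 (0.99 to 1.07). Below the sixth place, neighbours often could not be ordered by counting error, such as SLC7A11 and SLC1A3 at 9.35 and 8.57 FPKM in the ZEB1 K80R library.

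Against empty vector, 5 of the 19 members were higher in the ZEB1 K80R library and none lower, where 9.68% of the 10372 protein-coding genes compared were higher and 10.3% lower. The 5 were SLC38A7, SLC1A3, SLC7A5, SLC38A2 and SLC7A6. The median difference of the 19 was 0.41, beside 0.01 over all genes compared. In the wild-type ZEB1 library 4 of 19 were higher than in the empty vector library, namely SLC7A5, SLC38A7, SLC1A3 and SLC43A1, and none was lower, beside 12% and 7.63% of all genes. The median was 0.07, beside 0.02. Both comparisons use the same empty vector library. Counting error alone left 17 of 19 members apart from a ratio of 1 for ZEB1 K80R and 14 of 19 for wild-type ZEB1, beside 72.2% and 72.5% of all genes. Such intervals narrow with more reads, and the members were longer than all genes compared (medians of 6.98 and 5.14 kb), so these shares are not like for like. At a common sum of FPKM over all genes, which lowered the median gene by 0.39 and 0.40 on the log2 scale in these comparisons, the medians of the same 19 members were 0.0037 and −0.26, 2 and no members were higher, and 2 and 4 were lower.

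**Figure D2:**
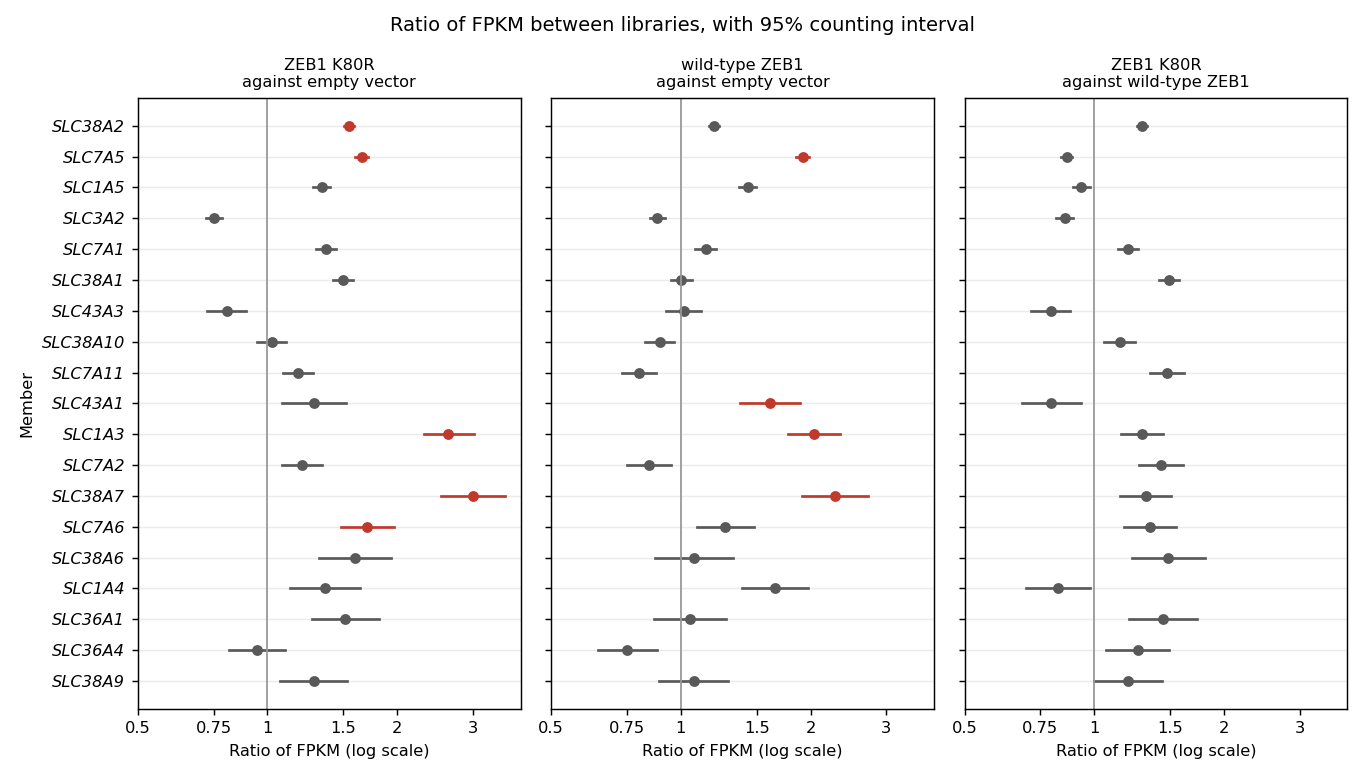
Ratio of FPKM on a log scale for the 19 members in each comparison; bars are 95% counting intervals and red marks a ratio of FPKM + 1 of at least 1.5. Red points number 5, 4 and none from left to right, and SLC3A2 lies left of 1 in each panel.

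SLC7A5 and SLC3A2, which form the LAT1 exchanger of large neutral amino acids, parted between the libraries. SLC7A5, the light chain LAT1 that carries leucine, phenylalanine and tryptophan (ENSG00000103257; GRCh38, chromosome 16, 87830023 to 87869488), had 118 FPKM in the ZEB1 K80R library and 136 in the wild-type ZEB1 library, against 71.1 in the empty vector library. Both overexpression libraries thus lay above empty vector, with ratios of 1.65 (1.60 to 1.71) for ZEB1 K80R and 1.92 (1.85 to 1.98) for wild-type ZEB1, which stayed above 1 at a common sum (1.22 and 1.40). SLC3A2, the heavy chain known as 4F2hc or CD98 that carries the light chains to the surface (ENSG00000168003; chromosome 11, 62856102 to 62888875), had 52.1 and 61.0 FPKM in the ZEB1 K80R and wild-type ZEB1 libraries, against 69.2 with empty vector. Its ratios were 0.753 (0.722 to 0.785) for ZEB1 K80R and 0.882 (0.847 to 0.917) for wild-type ZEB1, both under the 1.5-fold mark. At a common sum they were 0.555 and 0.642, and both passed the mark as lower. The SLC7A5 to SLC3A2 ratio within a library, which no library factor can change, was 2.26 for ZEB1 K80R and 2.24 for wild-type ZEB1, against 1.03 for empty vector. The first exceeded the empty vector ratio 2.20-fold (2.08 to 2.32) and the second 2.17-fold (2.06 to 2.29), while for ZEB1 K80R over wild-type ZEB1 the interval ran from 0.96 to 1.07. The unprocessed pseudogene SLC7A5P1 had 17, 7 and 19 reads with ZEB1 K80R, wild-type ZEB1 and empty vector, beside 7440, 8929 and 5362 for SLC7A5, and how reads were split between such copies is unknown.

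**Figure D3:**
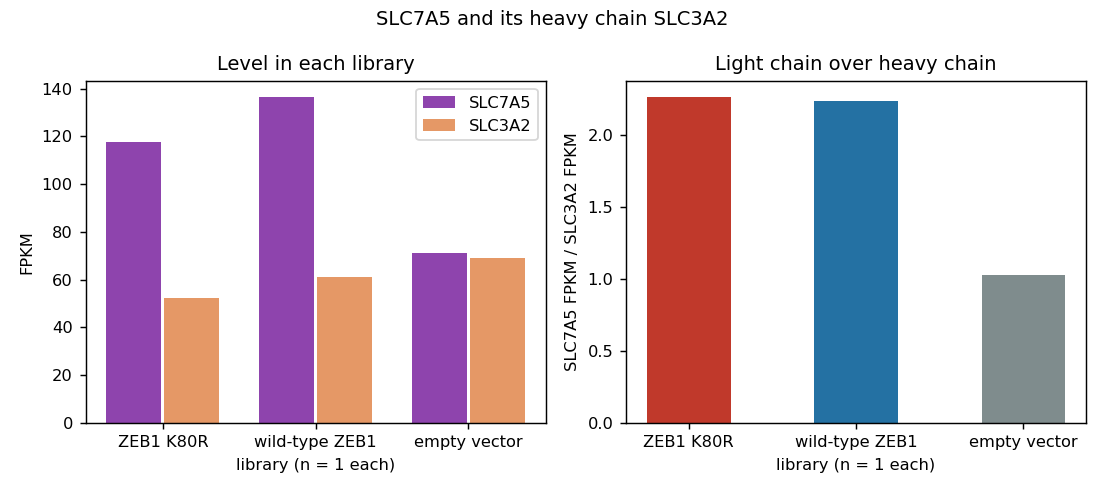
Left, FPKM of SLC7A5 and SLC3A2 in each library (bars from 0, 1 library each); right, the ratio of both within the library. The ratio was 2.26 with ZEB1 K80R and 2.24 with wild-type ZEB1, against 1.03 with empty vector.

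The 250 bases before a start site are shown for these genes because light and heavy chain differ in opposite directions from empty vector. They come from RefSeq (GRCh38.p14), which lists 1 window for SLC7A5 and 3 for SLC3A2. Capitals mark a match to the antioxidant response element bound by NRF2, searched as TGACNNNGC on both strands. Of the SLC3A2 windows only the one with such a match is shown, with its start site at 62881699. The window with its start site at 62856109, near the gene start at 62856102, holds no such match but the E-box CACCTG, which ZEB1 binds. The remaining one, with its start site at 62880896, holds neither.
SLC7A5, chr16:87869508-87869757, minus strand: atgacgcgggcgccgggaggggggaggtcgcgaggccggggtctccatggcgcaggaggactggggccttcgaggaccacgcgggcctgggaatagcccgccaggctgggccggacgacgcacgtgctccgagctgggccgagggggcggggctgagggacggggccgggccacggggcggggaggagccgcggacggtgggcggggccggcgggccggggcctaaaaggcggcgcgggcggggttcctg
SLC3A2, chr11:62881449-62881698, plus strand: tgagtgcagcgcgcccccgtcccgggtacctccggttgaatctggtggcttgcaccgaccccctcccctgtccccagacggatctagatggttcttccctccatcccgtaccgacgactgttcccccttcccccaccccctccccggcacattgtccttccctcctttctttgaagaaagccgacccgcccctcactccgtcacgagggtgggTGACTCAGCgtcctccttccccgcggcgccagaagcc
The SLC7A5 stretch lies in a window of 80.3% G and C and the SLC3A2 stretch in one of 62.7%. The match of SLC3A2 begins at −37 from the start site. That of SLC7A5 begins at −2 and runs past the stretch shown, so it carries no capitals. Such matches stand in 13.3% of all 35116 RefSeq windows, which hold 300 bases, 250 before to 50 after the start, and in 7 of the 54 windows of members.

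The other light chains were far below SLC7A5. SLC7A11, the cystine-glutamate exchanger xCT that feeds glutathione synthesis (chromosome 4, 138164097 to 138242349), had 9.35 and 6.34 FPKM in the ZEB1 K80R and wild-type ZEB1 libraries, against 7.93 with empty vector. The wild-type ZEB1 library was the lowest of the 3. Against wild-type ZEB1, the ZEB1 K80R library had a ratio of 1.47 (1.35 to 1.61). Relative to SLC3A2 in the same library, SLC7A11 was 1.57-fold (1.43 to 1.71) the empty vector value with ZEB1 K80R and 0.91-fold (0.82 to 1.00) with wild-type ZEB1. SLC7A6, the y+LAT2 light chain that exports arginine in exchange for glutamine (chromosome 16, 68264516 to 68301823), had 4.63, 3.44 and 2.71 FPKM with ZEB1 K80R, wild-type ZEB1 and empty vector. Its ratio to empty vector was 1.71 (1.48 to 1.97) for ZEB1 K80R and 1.27 (1.09 to 1.48) for wild-type ZEB1. At a common sum these were 1.26 and 0.92. SLC7A6 shares 17321 bases of its span with SLC7A6OS, at 1.05, 0.804 and 1.14 FPKM, on the opposite strand, and as the sources used here do not state the strand setting of the counting their reads cannot be told apart in that overlap. SLC7A7 and SLC7A8, the light chains of y+LAT1 and LAT2, stayed under 1 FPKM everywhere, with 28, 40 and 9 reads for SLC7A7 and 47, 28 and 7 for SLC7A8 in the 3 libraries. The second heavy chain, SLC3A1, which serves cystine uptake in kidney and gut, had at most 0.0962 FPKM, and its light chain partner SLC7A9 had no reads. SLC7A5 made up 88.7% and 92.7% of the summed light chain FPKM in the ZEB1 K80R and wild-type ZEB1 libraries, against 86.8% in the empty vector library, and SLC7A11 7.05% and 4.31%, against 9.68%.

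Cationic amino acids enter mainly through the CAT proteins. SLC7A1, the arginine and lysine carrier CAT1 (chromosome 13, 29509410 to 29595688), had 27.5 and 23.0 FPKM in the ZEB1 K80R and wild-type ZEB1 libraries, against 20.1 with empty vector, and ratios to it of 1.37 (1.30 to 1.45) and 1.14 (1.08 to 1.21), the second below 1 at a common sum. SLC7A2, the related carrier CAT2, had 6.65, 4.66 and 5.52 FPKM with ZEB1 K80R, wild-type ZEB1 and empty vector. Wild-type ZEB1 was thus the lowest for SLC7A2 as for SLC7A11. The other genes placed in this group, SLC7A3, SLC7A4 and SLC7A14, had no reads or at most 0.0296 FPKM.

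Of the glutamine and glutamate carriers of the SLC1 family, SLC1A3 differed most. SLC1A3 encodes EAAT1, a glutamate and aspartate importer best known from glia (ENSG00000079215; chromosome 5, 36606355 to 36688334), and had 8.57 FPKM from 715 reads with ZEB1 K80R and 6.64 FPKM from 574 reads with wild-type ZEB1, against 3.26 FPKM from 324 reads with empty vector. Its ratios to empty vector were 2.63 (2.30 to 3.01) and 2.04 (1.78 to 2.35). Within its span lie other annotated transcripts, of which AC008957.3, on the same strand, had 4.39, 2.36 and 3.59 FPKM, so its reads are uncertain where they overlap. SLC1A5, the glutamine importer ASCT2 (ENSG00000105281; chromosome 19, 46774883 to 46788594), had 83.2 and 89.1 FPKM in the ZEB1 K80R and wild-type ZEB1 libraries, against 62.3 with empty vector. The ratios of 1.34 (1.27 to 1.40) and 1.43 (1.37 to 1.498) stayed under the 1.5-fold mark, and at a common sum they were 0.98 and 1.04. SLC1A4, the serine and alanine carrier ASCT1, had 2.70 and 3.28 FPKM, against 1.99 with empty vector. Its ratio of 1.65 (1.38 to 1.97) with wild-type ZEB1 did not reach the mark on FPKM + 1. SLC1A1, the epithelial glutamate importer EAAT3, had 1.09, 0.852 and 0.945 FPKM, and SLC1A2, the main glutamate importer of astrocytes, had at most 0.00329 FPKM.

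The SLC38 family held the member with the highest mean FPKM over the 3 libraries. Among the members compared, it also held the one with the largest ratios to empty vector. SLC38A2, the sodium-coupled carrier SNAT2 that cells raise when amino acids run short (ENSG00000134294; chromosome 12, 46358189 to 46372867), had 141 and 109 FPKM in the ZEB1 K80R and wild-type ZEB1 libraries, against 91.6 with empty vector. Its ratio to empty vector was 1.54 (1.502 to 1.58) for ZEB1 K80R and 1.19 (1.16 to 1.23) for wild-type ZEB1. At a common sum these were 1.14 and 0.87. SLC38A1, the glutamine carrier SNAT1 that lies 88171 bases away on the same strand, had 24.3 FPKM with ZEB1 K80R and 16.2 with wild-type ZEB1, against 16.2 with empty vector. The ZEB1 K80R library alone stood higher for this gene, with a ratio to wild-type ZEB1 of 1.49 (1.41 to 1.58). SLC38A3 and SLC38A5, glutamine carriers of other tissues, had at most 0.110 and 0.0187 FPKM.

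SLC38A7, an exporter of glutamine and asparagine from lysosomes (ENSG00000103042; chromosome 16, 58665109 to 58685104), had 5.28 FPKM from 492 reads with ZEB1 K80R and 4.01 FPKM from 387 reads with wild-type ZEB1, against 1.76 FPKM from 196 reads with empty vector. Its ratios to empty vector were 2.99 (2.53 to 3.55) and 2.27 (1.91 to 2.71), the highest of the 19 members in both comparisons. SLC38A9, the lysosomal arginine sensor that signals to mTORC1, had 2.24, 1.87 and 1.75 FPKM, and stayed under the mark in each comparison. SLC36A1, a proton-coupled carrier of lysosomes, had 3.09, 2.14 and 2.04 FPKM, and its relative SLC36A4 2.48, 1.97 and 2.62. SLC38A6 had 3.70, 2.49 and 2.32 FPKM and SLC38A10 11.7, 10.2 and 11.5, both carriers of less settled function. They had ratios to empty vector of 1.59 (1.32 to 1.93) and 1.02 (0.95 to 1.11) with ZEB1 K80R and 1.07 (0.87 to 1.32) and 0.89 (0.82 to 0.97) with wild-type ZEB1.

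In the SLC43 family the direction was mixed. SLC43A1, the branched-chain amino acid carrier LAT3, had 6.10 FPKM with ZEB1 K80R and 7.68 with wild-type ZEB1, against 4.76 with empty vector. The ratio was 1.28 (1.08 to 1.52) for ZEB1 K80R, below 1 at a common sum, and 1.61 (1.37 to 1.89) for wild-type ZEB1, both over empty vector. On FPKM + 1 the latter was 1.51, just past the mark, and its ratio of FPKM was 1.17 at a common sum. SLC43A1 missed the mark at a common sum with or without mitochondrial genes and when set against genes of like length. SLC43A3, 56953 bases away and known as a carrier of purine bases rather than of amino acids, had 10.4 and 13.2 FPKM, against 13.0 with empty vector. SLC43A2, the carrier LAT4, stayed under 1 FPKM.

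Between ZEB1 K80R and wild-type ZEB1, no member reached 1.5-fold in either direction, where 1.33% of all genes compared were higher and 3.87% lower with ZEB1 K80R. At a common sum without mitochondrial genes, SLC38A1 and SLC7A11 passed the mark as higher and the median of the 19 was 0.40. As deposited, their median difference was 0.25, beside −0.03 over all genes, with 13 of 19 above 0. Counting intervals left out a ratio of 1 for 18 of the 19, beside 59.2% of all genes, shares that again depend on the number of reads per gene. All 6 compared SLC38 genes, both SLC36 genes and both CAT genes were above 0. The 6 below 0 were SLC7A5, SLC1A5, SLC3A2, SLC1A4, SLC43A1 and SLC43A3, where SLC1A5 moved above 0 at a common sum without mitochondrial genes and when set against genes of like length.

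That difference moved with gene length. All 6 members below 0 but SLC1A4 were among the shorter members, at 3.33 kb (SLC1A5), 3.53 kb (SLC43A1), 4.52 kb (SLC43A3), 4.75 kb (SLC7A5) and 5.18 kb (SLC3A2). The median length was 6.98 kb over the 19 members and 5.14 kb over all genes compared. SLC1A4 has 6.94 kb. SLC38A6, at 5.15 kb, was as short as SLC3A2 and had a difference of 0.43, above 0. Of the 13 members of 6 kb or more, all but SLC1A4 had a difference above 0, each under the 1.5-fold mark. Over the 19 members the rank correlation (Spearman) of length with the difference was 0.59, and over all 10372 genes it was 0.40, given as a description of the same libraries. All genes of 2 to 4 kb had a median difference of −0.16 between ZEB1 K80R and wild-type ZEB1, and those of 8 to 12 kb one of 0.10. Set against the median of genes of like length, the median of the members was 0.21 and 14 of 19 were above 0. For wild-type ZEB1 against empty vector the correlation over the members was −0.58, beside −0.06 over all genes, and for ZEB1 K80R against empty vector it was −0.13, beside 0.18. The part of length in these differences was not tested.

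**Figure D4:**
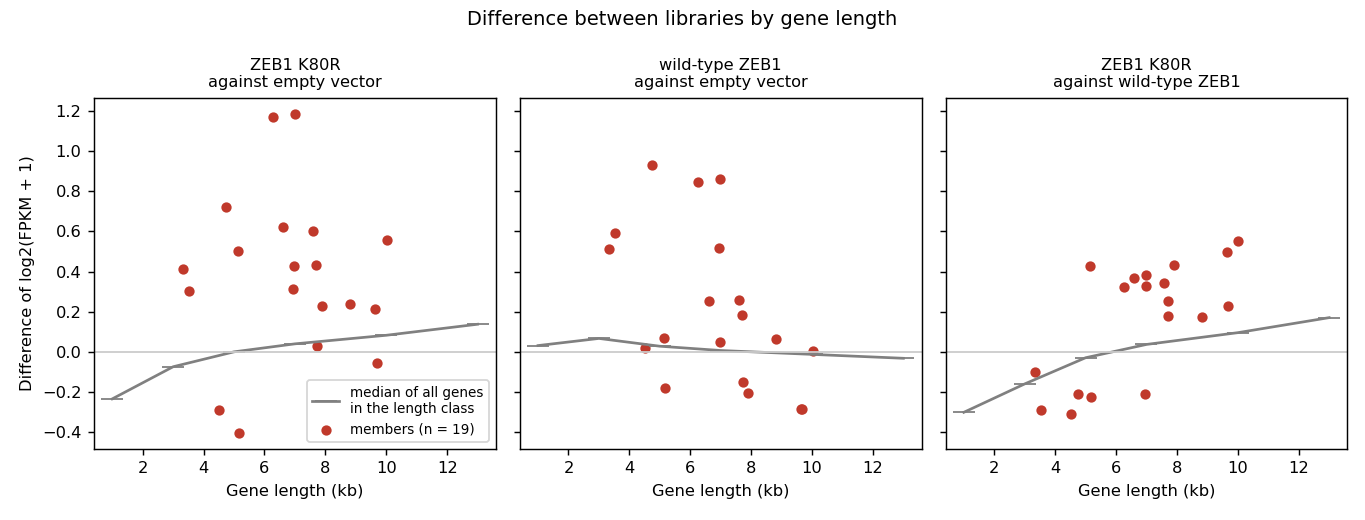
Difference of log2(FPKM + 1) against gene length in kb for the 19 members (red) in each comparison, with the median of all compared genes in each of 6 length classes (grey). In the right panel both the members and all genes run from below 0 at short lengths to above 0 at long ones.

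ATF4 response elements are shown because several members belong to the genes known to answer amino acid shortage. The search used TGATGNAAN on both strands of the RefSeq windows of 300 bases, 250 before to 50 after a start site, which were found for 32 of the 41 members. Among them 6 of 54 windows held a match, each in a different gene, beside 3.61% of all windows. All 6 genes were among the 16 members with a mean FPKM of at least 1 that had a window. The matches are shown with 5 bases on each side, read along the strand that carries the match, which stands in capitals.
SLC1A4, chr2:64989386-64989404, minus strand: ggagaTGATGCAAAcggga
SLC1A3, chr5:36596363-36596381, plus strand: atgacTGATGCAAAgcagg
SLC3A2, chr11:62881730-62881748, minus strand: ggagcTGATGTAAGgagtc
SLC38A1, chr12:46266507-46266525, minus strand: ccgaaTGATGAAAAgggat
SLC7A1, chr13:29595668-29595686, minus strand: actgcTGATGAAACctggc
SLC1A5, chr19:46784898-46784916, minus strand: gtggcTGATGCAAGctgtc
Counted along the gene, with the first transcribed base of the window as 1, the match begins at −220 in SLC1A3, −97 in SLC1A5, −8 in SLC1A4 and −4 in SLC38A1, upstream of the start. In SLC7A1 and SLC3A2 it begins at 8 and 37, downstream of it. The matches of SLC1A4 and SLC38A1 run across the start. These starts are those of single windows, not always the start of the gene span. The SLC1A3 match lies ahead of its span, which begins at 36606355, and the other SLC1A3 windows hold none. Those of SLC1A5, SLC38A1 and SLC3A2, for example, lie inside their spans, which begin at 46788594, 46270017 and 62856102. Of these 6 genes, SLC1A3 passed the 1.5-fold mark against empty vector in both overexpression libraries, and the others passed it in neither. SLC1A4, SLC38A1, SLC7A1 and SLC1A5 had ratios to empty vector of 1.00 or more in both, though at a common sum SLC1A5 was under 1 with ZEB1 K80R and SLC7A1 and SLC38A1 were under 1 with wild-type ZEB1. SLC3A2 had ratios under 1 in both. The E-box CACCTG, which ZEB1 binds, stood in 9 of 54 windows of members, beside 20.6% of all windows, among them windows of SLC38A2 and SLC3A2. No window of SLC7A5, SLC1A3 or SLC38A7 held these 6 letters.

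Genes of the response to amino acid shortage came next. Of 25 compared, 4 were higher and 3 lower with ZEB1 K80R than with empty vector, and their median difference was −0.04 (−0.48 with equal sums, 0.04 without the mitochondrial genes in the sum). With wild-type ZEB1, 6 were higher and none lower, and the median was 0.25 (−0.17 once sums were equal). Against wild-type ZEB1, the ZEB1 K80R library had none higher and 4 lower, a median of −0.33 and 1 of 25 above 0. That median was −0.31 with equal sums and −0.20 without the mitochondrial genes in the sum, beside −0.03 over all genes as deposited. In this comparison, which moved with gene length, all genes under 2 kb had a median of −0.30. The part of length in the values of this list was not tested. Of all genes compared, 9.68% were higher and 10.3% lower with ZEB1 K80R than with empty vector. The shares were 12% and 7.63% for wild-type ZEB1 against empty vector, and 1.33% and 3.87% for ZEB1 K80R against wild-type ZEB1. ATF4 itself had 186 and 242 FPKM with ZEB1 K80R and wild-type ZEB1, against 243 with empty vector. TRIB3, a pseudokinase gene induced by ATF4, had 30.2 and 44.6 FPKM, against 59.8. DDIT4, an inhibitor of mTORC1 induced by stress, had 7.40 and 15.8 FPKM, against 16.9, and CEBPB, a partner of ATF4, 31.4 and 65.9, against 55.3. ASNS, the asparagine synthetase gene, had 2.09 and 2.34 FPKM, against 1.00, and DDIT3, the stress factor CHOP, 3.96 and 5.49, against 2.12.

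Beside the counts that follow, 9.68% of all genes compared were higher and 10.3% lower with ZEB1 K80R than with empty vector. For wild-type ZEB1 the shares were 12% and 7.63%. Of 20 aminoacyl-tRNA synthetase genes, 2 were higher and none lower than with empty vector in either overexpression library. These were WARS and FARSB with ZEB1 K80R, and WARS and CARS with wild-type ZEB1. The medians of the 20 were −0.16 and 0.08, which were −0.59 and −0.37 at a common sum. None passed the mark between ZEB1 K80R and wild-type ZEB1. WARS, the tryptophan enzyme, had 24.5 and 31.9 FPKM with ZEB1 K80R and wild-type ZEB1, against 11.1 with empty vector. Of 36 genes of lysosomal amino acid sensing, 1 was higher and 5 lower with ZEB1 K80R and 2 were higher and 4 lower with wild-type ZEB1 than with empty vector. The medians of the 36 were −0.06 and −0.02, with 14 and 17 genes above 0, and −0.41 and −0.42 at a common sum. Among the lower ones, LAMTOR4, a subunit of the lysosomal anchor of mTORC1, had 11.4 and 14.9 FPKM, against 33.9. RHEB, the GTPase that activates mTORC1 and also lower, had 19.5 and 26.4, against 45.5. Of 22 enzymes of amino acid and glutathione metabolism, 1 was higher and 5 lower with ZEB1 K80R, and 2 were higher and 4 lower with wild-type ZEB1. Their medians were −0.12 and 0.10, with 7 and 14 genes above 0, and −0.51 and −0.31 at a common sum. ODC1, which makes polyamines from ornithine, had 117 and 104 FPKM with ZEB1 K80R and wild-type ZEB1, against 209.6 with empty vector.

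Amino acid carriers of other families are listed apart from the members. Of the 21 genes, 6 passed the filter, of which 4 were higher and none lower than with empty vector in each overexpression library, with medians of 0.77 for ZEB1 K80R and 0.68 for wild-type ZEB1, which were 0.35 and 0.27 at a common sum. The 4 were the same genes in both. SLC6A9, the glycine importer GLYT1, had 3.73 and 3.34 FPKM, against 1.13, and SLC6A6, the taurine importer, 35.9 and 41.5, against 20.3. SLC6A15, a carrier of neutral amino acids, had 16.1 and 15.0 FPKM, against 9.23, and CTNS, the lysosomal cystine exporter, 13.3 and 11.5, against 6.56. Of 157 compared SLC genes other than the members, 25 were higher and 9 lower with ZEB1 K80R than with empty vector. These counts again include the SLC6 genes just named. With wild-type ZEB1, 28 were higher and 7 lower. The medians of the 157 were 0.19 and 0.18 (−0.17 and −0.22 at a common sum). Over all genes compared, 9.68% were higher and 10.3% lower with ZEB1 K80R, and 12% and 7.63% with wild-type ZEB1. Of 5 compared factors known to act on transporter genes, 1 was higher than with empty vector with ZEB1 K80R and 3 with wild-type ZEB1, and none was lower. Their medians were 0.30 and 0.59 (−0.10 and 0.22 at a common sum), and the lowest difference with ZEB1 K80R was −0.38. Among them, MYC had 17.2 and 20.1 FPKM in the ZEB1 K80R and wild-type ZEB1 libraries, against 12.3 with empty vector, and TFEB, a regulator of lysosomal genes, 2.38 and 2.13, against 1.21.

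**Figure D5:**
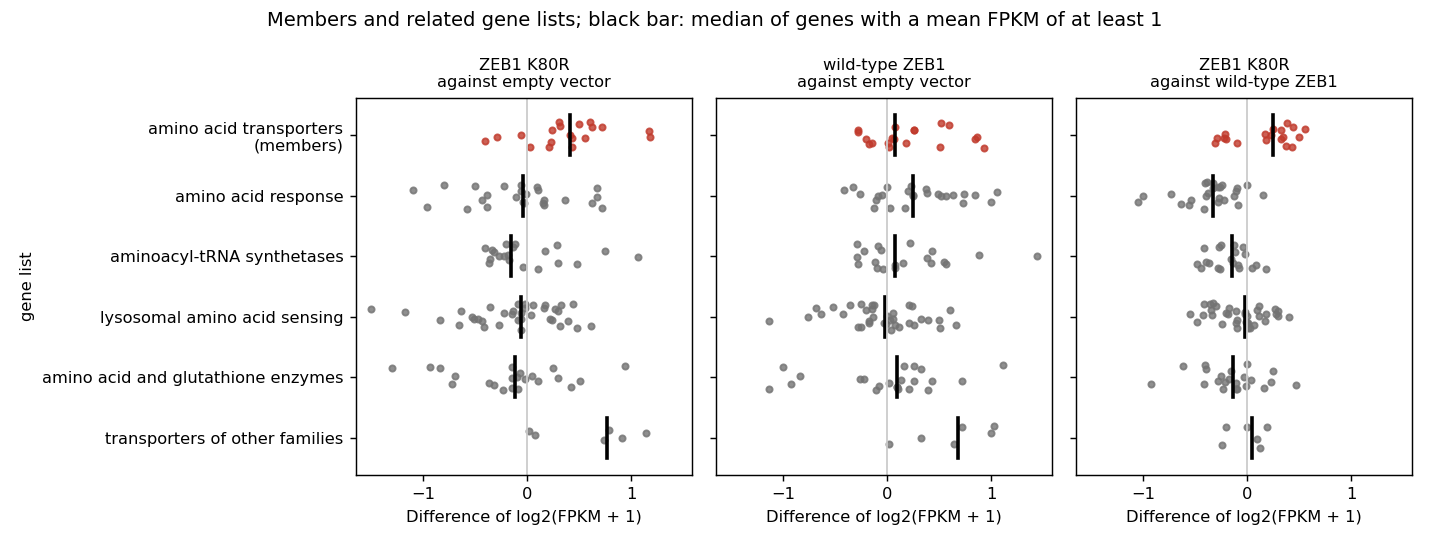
Difference of log2(FPKM + 1) of each compared gene (points) and median (black bar) for the members and 5 related lists in each comparison. The medians of the members and of the transporters of other families lie right of 0 in the left panel, at 0.41 and 0.77, and that of the amino acid response lies at −0.33 in the right panel.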

How the data were processed

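Messenger RNA of 3 cultures, grouped by labelled genotype, was sequenced. RNAiso Plus and a SMARTER kit were used, per the labels' protocols. Listed without roles, per the submitters' processing notes, are hg38, DESeq2 1.20.0, featureCounts 1.5.0-p3 and CASAVA. Aligner, annotation and strand setting: not given in the sources used here. FPKM values were deposited by the authors with gene lengths for 58735 genes, and coordinates are printed as the table gives them.

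FPKM times gene length came in whole steps for 100% of values above 0, within 0.05 reads, which gave the reads. The depth behind the scaling came out at 13321338, 13795840 and 15886593, not the summed reads, for a reason not given. The reads served counting intervals only (exact conditional, 95%), since reads copied from 1 molecule are not independent. A count of 0 allows 3 reads, or 0.0450, 0.0435 and 0.0378 FPKM for a gene of 5 kb with ZEB1 K80R, wild-type ZEB1 and empty vector. Genes whose mean FPKM reached 1 were compared on log2(FPKM + 1) without a test. The members, lists, motifs and rules were chosen with earlier results of these data known. Members past 1.5-fold, the 12 highest, those without reads and leading list genes are named; others were chosen after their values were seen. Alternatives were the pseudocount, the filter, 3 scalings and genes of like length. Steps were tested on simulated data. Python 3.11.15, numpy 2.4.6, pandas 2.3.3 and scipy 1.17.1 were used.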

Additional observations from a re-analysis of the deposited data

How the results depend on the processing

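No paired analysis was possible because each group had 1 library. No library could be left out for the same reason. At a common sum of FPKM over all genes, the members higher than with empty vector numbered 2 (SLC1A3 and SLC38A7) for ZEB1 K80R and 0 for wild-type ZEB1, those lower 2 (SLC3A2 and SLC43A3) and 4 (SLC36A4, SLC3A2, SLC7A11 and SLC7A2), and the medians were −0.0093 and −0.26 over the 20 members that reached a mean of 1 after scaling, against 0.0037 and −0.26 over the 19. That scaling takes in the mitochondrial genes, and 10 of 42 values of named members changed sign under it. At a common sum without mitochondrial genes, 2 members (SLC38A1 and SLC7A11) were higher with ZEB1 K80R than with wild-type ZEB1, and the median gene moved by 0.14. For ZEB1 K80R against empty vector, 3 members were higher at a mean FPKM of at least 5, as fewer genes were compared, and 3 (SLC7A5, SLC1A3 and SLC38A7) when set against genes of like length, a setting added after the data were seen, and the median was 0.24 with no filter on low values. SLC3A2 lay below SLC7A5 relative to empty vector under every scaling, since scaling cannot change their ratio. A pseudocount of 0.1 kept the counts within 1.5 times. Median ratio scaling did so too, but it could hardly change them. It moved the median gene by only 0.0016 for ZEB1 K80R and 0.013 for wild-type ZEB1 against empty vector. For ZEB1 K80R against wild-type ZEB1 it moved it by −0.011. No called difference changed sign. Members under about 100 reads, such as SLC7A7 and SLC1A1, are limited by depth.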
